A study of Rattus norvegicus with 4 samples.

Results

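The 8 transcriptional regulators of dorsal telencephalic identity and cortical area examined in wild-type and Pax6 mutant rat forebrain were Emx2, Nr2f1, Nr2f2, Nr2e1, Zbtb20, Fezf2, Meis2 and Tle4. They were followed through every probe set, the group of oligonucleotides that reports 1 transcript, whose single annotated symbol is 1 of these genes. This gave 15 of the 31099 probe sets on the array, for 7 of the 8 genes, out of 14217 genes with a named probe set. Nr2e1 has no probe set under its symbol in the annotation used here and was not analysed. Zbtb20 has 6 probe sets, Nr2f2 has 3, Tle4 has 2, and Emx2, Nr2f1, Fezf2 and Meis2 have 1 each.

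The samples were telencephalons, the front part of the embryonic forebrain, of Sprague-Dawley rats at E11.5, dated by the vaginal plug, with 2 one-colour Affymetrix arrays of wild-type tissue and 2 of tissue homozygous for the Pax6 mutation (rSey2/rSey2). Both groups share the strain and the age, and no treatment is named. What the rSey2 lesion does to the Pax6 gene is not given in the sources used here. The design text gives 13 telencephalons per preparation and a repeat in each genotype, so an array stands for pooled embryos and for no single animal. The labels do not name litters, so each p-value reflects the spread among the 4 arrays alone, which may be partly technical. In such bulk tissue, fewer cells of a type and less RNA per cell cannot be told apart.

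The dorsal telencephalon gives rise to the cerebral cortex. Its dividing progenitors carry graded amounts of a small set of transcription factors, and the crossing gradients set up the later cortical areas. Pax6 is high rostrally and laterally, whereas Emx2 has the opposite slope, and in the mouse each of these genes is known to limit the other's domain. Nr2f1 and Nr2f2 are orphan nuclear receptors of the COUP-TF family, and Nr2f1 is needed for caudal, sensory areas. Fezf2, Zbtb20, Meis2 and Tle4 act in progenitors, in the hippocampal primordium, in the ventral and lateral telencephalon or in deep-layer neurons. The comparison asks which of these transcripts differ when Pax6 is mutated, early in the formation of the telencephalon.

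The values were the authors' GCRMA values on the log2 scale, on which a step of 1 is a doubling, and values of different probe sets are not compared as levels. Probe sets with a mean under 3.21 were called dim and were not tested. This left 12 of the 15 probe sets and 7 genes, and each gene was represented in counts by its brightest probe set. Differences are mutant minus wild type with the standard error (SE) and 95% interval of limma, a linear model fitted to all 18625 tested probe sets, with Benjamini-Hochberg adjustment over all of them.

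No member differed past the threshold of 0.05: the limma adjusted p was 1 for each of the 12 tested probe sets. Over all tested probe sets the same rule called 0, or 0%. Of the 7 genes, 4 were nominally higher in the mutant and 3 lower, with a median difference of 0.03 against 0 over 9840 tested genes. The median size of the difference was 0.12 for the members and 0.09 over all genes. The largest difference of a brightest probe set was that of Zbtb20, at 0.49, and the smallest that of Fezf2, at 0.03. In the brightest probe sets of 6 of the 7 genes the 95% interval lay within a doubling or a halving, Zbtb20 being the exception. A dimmer Nr2f2 probe set, 1370063_at, had an interval from -1.09 to 0.34, which reaches past a halving. At an unadjusted p under 0.05, limma had 2 of the 12 member probe sets, 1 of Tle4 and 1 of Zbtb20, against 3.65% of all probe sets.

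The arrays of the 2 genotypes did not overlap for 4 of the 7 genes: Tle4, Zbtb20 and Meis2 were higher on both mutant arrays than on either wild-type array, and Emx2 was lower. Of all 9840 tested genes, 24.3% did not overlap, 12.2% with higher and 12.1% with lower mutant values. The member count depended on scaling. After each array was centred on its median, only Tle4 and Zbtb20 of the 7 remained apart, against 26.5% of all genes, and after quantile normalization Meis2 overlapped.

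**Figure D1:**
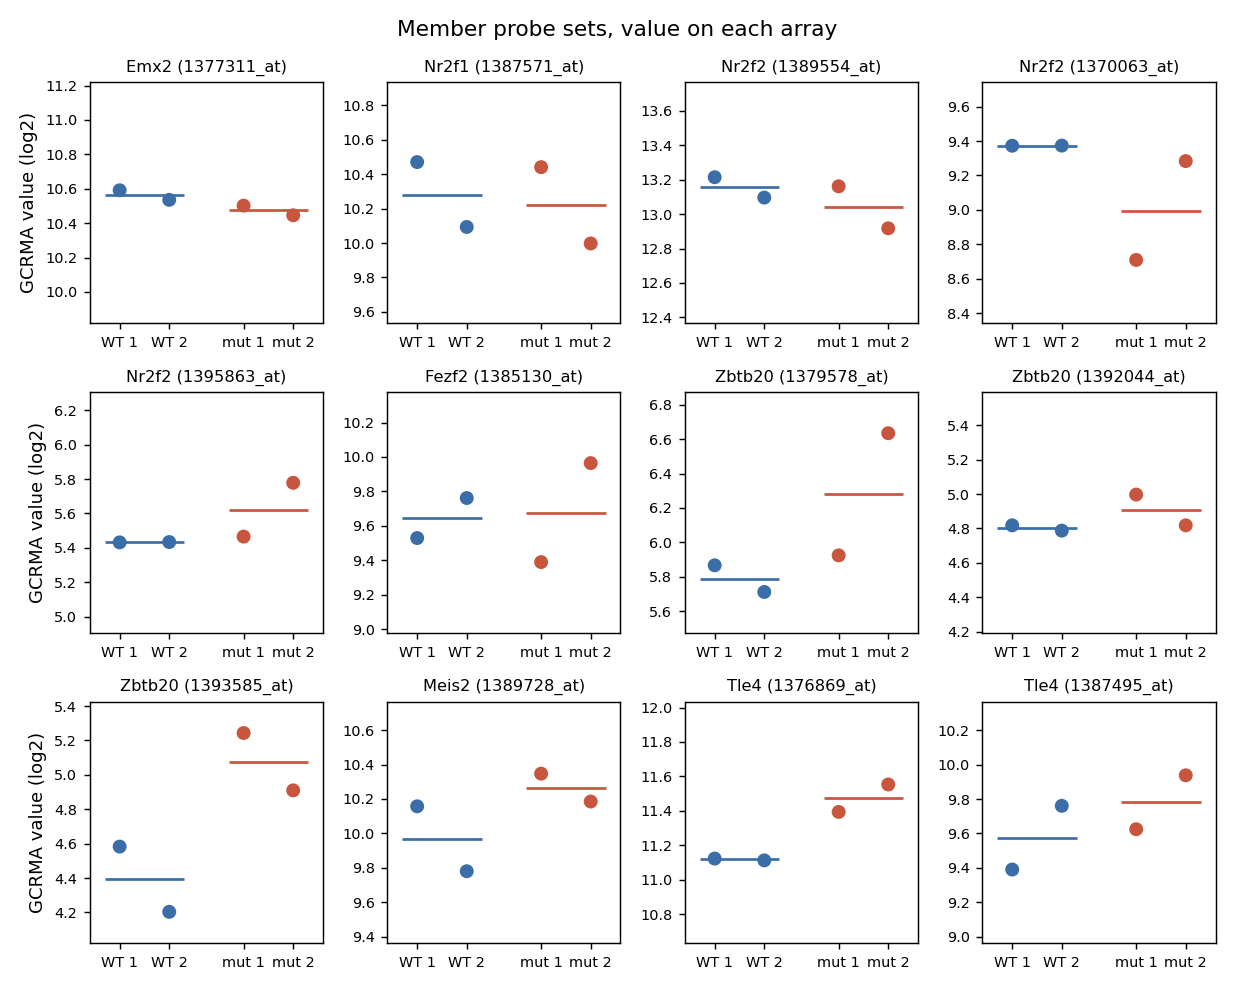
GCRMA value (log2) of each tested member probe set on the 2 wild-type arrays (WT, blue) and the 2 Pax6 mutant arrays (mut, red), with horizontal lines at the group means; every panel spans the same 1.4 log2 units. Tle4 1376869_at has tight groups that stand apart. Nr2f1, Fezf2, Nr2f2 1389554_at and the other Tle4 probe set, 1387495_at, differ more between arrays of a genotype than between genotypes.

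Among the homeobox genes, Emx2 was the most precisely measured. Emx2 encodes a homeodomain protein that promotes caudal and medial cortical identity. Its probe set, 1377311_at, read 10.59 and 10.54 on the wild-type arrays and 10.50 and 10.45 on the mutant arrays. Both mutant arrays were lower than both wild-type arrays, with 0.03 between the nearest ones. The difference was -0.09 (SE 0.07, n = 2 arrays per genotype; 95% interval -0.31 to 0.13; limma adjusted p = 1). The lower end of that interval corresponds to a 1.24-fold lower level in the mutant and the upper end to a 1.10-fold higher one. Leaving out 1 array at a time gave -0.12 to -0.06.

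Meis2, a TALE-class homeodomain factor that pairs with Pbx proteins and is known from the lateral ganglionic eminence, lay on the other side. It read 10.16 and 9.78 in wild type and 10.35 and 10.19 in the mutant (1389728_at). The highest wild-type array was only 0.03 below the lowest mutant array, and the wild-type arrays differed from each other by 0.38. The difference of 0.30 (SE 0.17, n = 2; limma adjusted p = 1) came with bounds of -0.23 and 0.83 at 95%. Leaving out wild-type replicate 2 gave 0.11, and leaving out replicate 1 of that genotype gave 0.49.

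The nuclear receptors gave differences near 0 in their brightest probe sets, but with wide intervals. Nr2f1, which imposes sensory against motor identity on cortex, read 10.47 and 10.09 in wild type and 10.44 and 10.00 in the mutant (1387571_at). The 2 replicate 1 arrays were high and the 2 replicate 2 arrays low, so the genotypes overlapped almost entirely. Arrays of a genotype differed by 0.38 in wild type and 0.44 in the mutant, whereas the genotype difference was -0.06 (SE 0.24, n = 2; limma adjusted p = 1). Its interval, from -0.79 to 0.66, leaves room for a level up to 1.73-fold lower or 1.58-fold higher. The sign changed with single arrays left out: -0.28 without mutant replicate 1 and 0.16 without mutant replicate 2.

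Nr2f2, the other COUP-TF gene, is known from the caudal telencephalon and ventral eminences and also from veins and mesenchyme. Its brightest probe set, 1389554_at, read 13.21 and 13.10 in wild type and 13.16 and 12.92 in the mutant, with overlap between genotypes. The difference was -0.12 (SE 0.13, n = 2; limma adjusted p = 1; 95% interval -0.50 to 0.27), and 0.0063 without mutant replicate 2.

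The other Nr2f2 probe sets pointed in opposite directions. Probe set 1370063_at read 9.37 on both wild-type arrays and 8.71 and 9.28 on the mutant arrays, which gives -0.38 (SE 0.23). Without mutant replicate 1 that difference was -0.09, since this array alone held the low value. The dimmer 1395863_at read 5.43 on both wild-type arrays and 5.47 and 5.78 on the mutant arrays, a difference of 0.19 (SE 0.14), or 0.03 without mutant replicate 2. In both probe sets the wild-type arrays were nearly equal, and a single mutant array made most of the gap. The probe sequences were not used here, so whether probe sets read different Nr2f2 transcripts, or cross-react with the related Nr2f1, was not tested.

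Of the zinc-finger genes, Fezf2, which specifies subcerebral projection neurons and is already active in early forebrain progenitors, read 9.53 and 9.76 in wild type and 9.39 and 9.96 in the mutant (1385130_at). The mutant arrays held both the lowest and the highest of the 4 values. The difference of 0.03 (SE 0.25, n = 2; 95% interval -0.74 to 0.80; limma adjusted p = 1) ran from -0.26 without mutant replicate 2 to 0.32 without mutant replicate 1. The ends of that interval correspond to a level 1.67-fold lower or 1.74-fold higher in the mutant.

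Zbtb20, a BTB zinc-finger repressor known for the hippocampal primordium, had the largest member differences. Its brightest probe set, 1379578_at, read 5.87 and 5.71 in wild type and 5.92 and 6.63 in the mutant. Mutant replicate 2 was high and mutant replicate 1 lay just above the wild-type arrays. The difference of 0.49 (SE 0.29, n = 2; limma adjusted p = 1; 95% interval -0.40 to 1.38) was 0.14 without mutant replicate 2 and 0.85 without mutant replicate 1.

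A second Zbtb20 probe set, 1393585_at, read 4.58 and 4.20 in wild type and 5.24 and 4.91 in the mutant. Here both mutant arrays were at least 0.33 above both wild-type arrays. The difference was 0.68 (SE 0.21, n = 2; limma adjusted p = 1), 1.61-fold, and 0.49 to 0.87 with 1 array left out. With a pseudocount of 16 on the linear scale, which damps low values, it was 0.43.

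The third tested Zbtb20 probe set, 1392044_at, differed by 0.10 (SE 0.10), with 1 mutant array above and the other tied with a wild-type array at 4.82. All 3 tested probe sets of this gene thus had higher mutant means. The remaining 3 were dim, with values from 2.09 to 2.63, and 1 of them gave the same value of 2.09 on all 4 arrays. These probe sets share the same 4 arrays and are not independent measurements.

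Tle4, a Groucho-family corepressor that has no DNA-binding domain of its own and is later a marker of deep-layer corticothalamic neurons, had the member difference largest relative to its error. Its brightest probe set, 1376869_at, read 11.12 and 11.11 in wild type and 11.39 and 11.55 in the mutant. Both mutant arrays were at least 0.27 above both wild-type arrays, which differed by 0.01. The difference was 0.36 (SE 0.09, n = 2; limma adjusted p = 1), 1.28-fold, with a 95% interval from 0.08 to 0.64. It ran from 0.28 to 0.44 with 1 array left out and was 0.36 after median centring and 0.37 after quantile normalization.

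The second Tle4 probe set, 1387495_at, read 9.39 and 9.76 in wild type and 9.62 and 9.94 in the mutant. The genotypes overlapped, with the replicate 2 arrays high in both. Its difference of 0.21 (SE 0.20) had the same sign but was within the spread between arrays, and it was 0.02 without wild-type replicate 1.

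**Figure D2:**
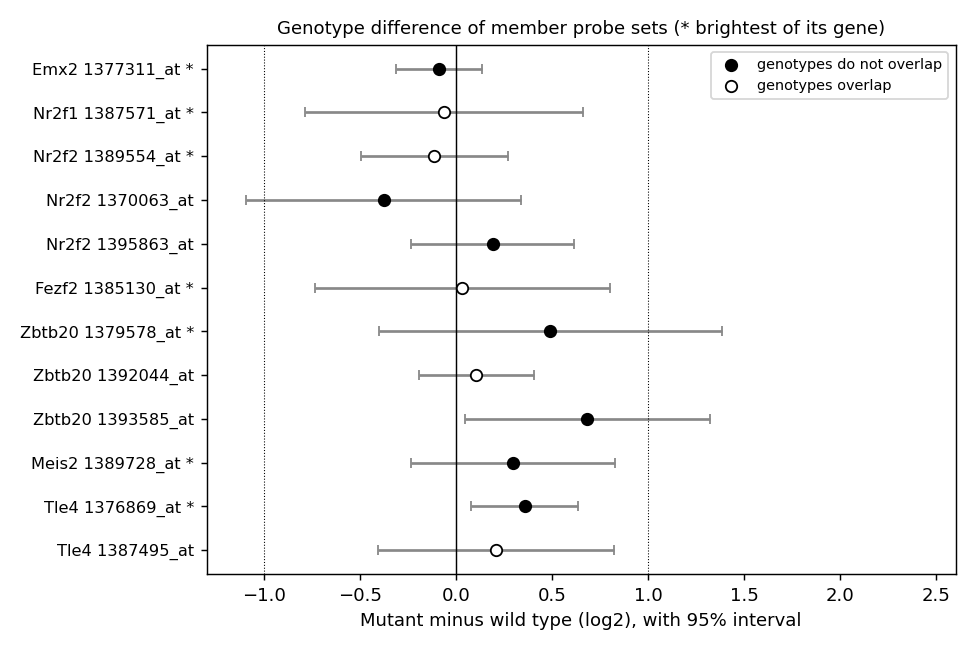
Mutant minus wild-type difference (log2) of the 12 tested member probe sets, with 95% intervals from limma; dotted lines mark a doubling and a halving. Of the 12 intervals, only those of Tle4 1376869_at (0.08 to 0.64) and Zbtb20 1393585_at (0.05 to 1.32) do not reach 0, and neither passes adjustment over all probe sets.

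**Figure D3:**
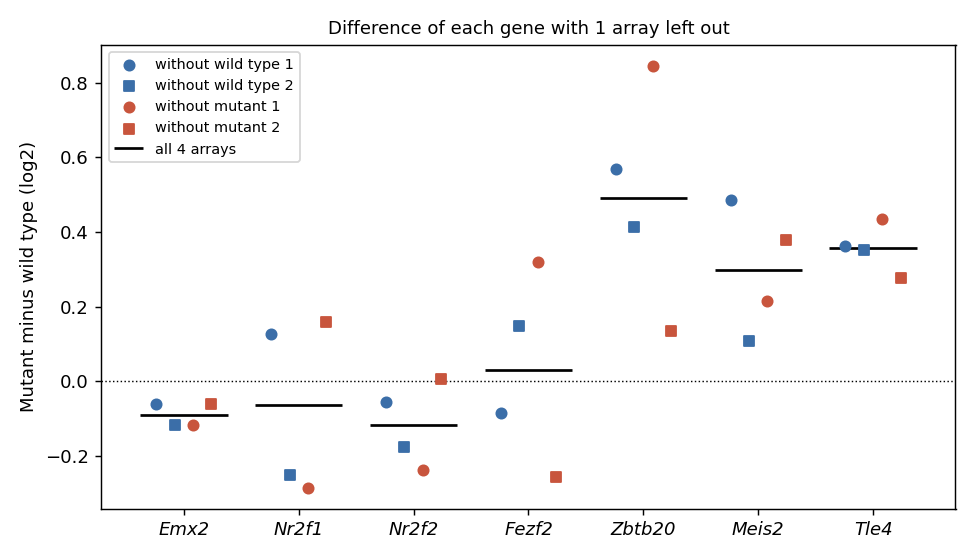
Difference (log2) of each member's brightest probe set with all 4 arrays (line) and with each array left out in turn (points). Emx2, Zbtb20, Meis2 and Tle4 keep their sign in all 4 cases, whereas Nr2f1, Nr2f2 and Fezf2 change sign.

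Paralogs and known partners of the members mostly gave small differences. Of 30 such genes with a named probe set, 25 were tested: 17 were nominally higher and 7 lower, with a median of 0.01, and 0 passed the adjusted threshold (1 at an unadjusted p under 0.05 in limma, against 3.59% of all genes). The genotypes did not overlap for 3 of the 25, all with higher mutant values, against 12.2% of all genes in that direction. Bcl11a, a zinc-finger protein that binds COUP-TF receptors, read 5.47 and 5.60 in wild type and 6.65 and 6.12 in the mutant, which differed by 0.85 (SE 0.23; limma adjusted p = 1). Both of its mutant arrays stood above the wild-type arrays, and its second probe set differed by 0.56 (SE 0.39). The class II deacetylase Hdac5 differed by 0.26 (SE 0.13; 0.12 when wild-type replicate 1 was left out, 0.40 when replicate 2 of that genotype was) and the class I deacetylase Hdac3 by 0.15 (SE 0.08). A dimmer Hdac5 probe set went the other way, at -0.14.

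The other Groucho genes did not share the sign of Tle4. Tle1 differed by -0.06 (SE 0.16), Tle3 by -0.07 (SE 0.14) and the short family member Tle5 by -0.27 (SE 0.34), while Tle2 was dim. Among Meis relatives and partners, Meis1 differed by 0.07 (SE 0.28), Pbx2 by 0.04 (SE 0.09) and Pbx3 by -0.29 (SE 0.22). The genotypes overlapped in each of these tested genes. The COUP-TF relative Nr2f6 differed by 0.02 (SE 0.11). Emx1, the paralog of Emx2, was dim, at 2.77 and 2.14 in wild type and 2.08 on both mutant arrays.

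Other regulators of dorsal patterning gave a wider range. Of 13 tested genes, 8 were nominally higher and 5 lower, with a median of 0.17, and 0 passed the adjusted threshold (2 at an unadjusted p under 0.05 in limma, against 3.59% of all genes). Groups did not overlap for 5 with higher and 2 with lower mutant values, out of 13, against 12.2% and 12.1% of all genes. Dmrta1, a DM-domain factor of dorsal progenitors, read 8.61 and 8.80 in wild type and 5.17 and 6.29 in the mutant, and so differed by -2.97 (SE 0.45; limma adjusted p = 1). No member interval reaches that size. The POU factor Pou3f3 differed by 0.39 (SE 0.11) and the LIM homeodomain factor Lhx2, which sets cortical against hem identity, by 0.30 (SE 0.10). Pax6 itself read 11.75 and 11.85 in wild type and 11.78 and 11.63 in the mutant, and so differed by -0.09 (SE 0.10). The transcript level of Pax6 thus gives no check of genotype.

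Genes that mark cortical areas or layers later in development were tested in 22 cases, with 13 nominally higher, 9 lower and a median of 0.08. None passed the adjusted threshold, and 4 had an unadjusted p under 0.05 in limma, against 3.59% of all genes. Groups did not overlap for 5 with higher and 3 with lower mutant values, out of 22, against 12.2% and 12.1% of all genes. The largest differences without overlap were those of the LIM-domain-binding protein gene Ldb2 at 0.76 (SE 0.21), of Crym, which encodes the thyroid hormone-binding mu-crystallin, at 0.75 (SE 0.22), and of the POU factor Pou3f1 at 0.62 (SE 0.27). Pou3f1 differed by 0.29 without mutant replicate 2 and by 0.95 without mutant replicate 1. Crym, at 0.50 without mutant replicate 2, read 10.53 and 10.36 in wild type and 10.94 and 11.44 in the mutant. Tbr1 and Eomes, which mark cortical neurons and their intermediate progenitors, were dim on all arrays.

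**Figure D4:**
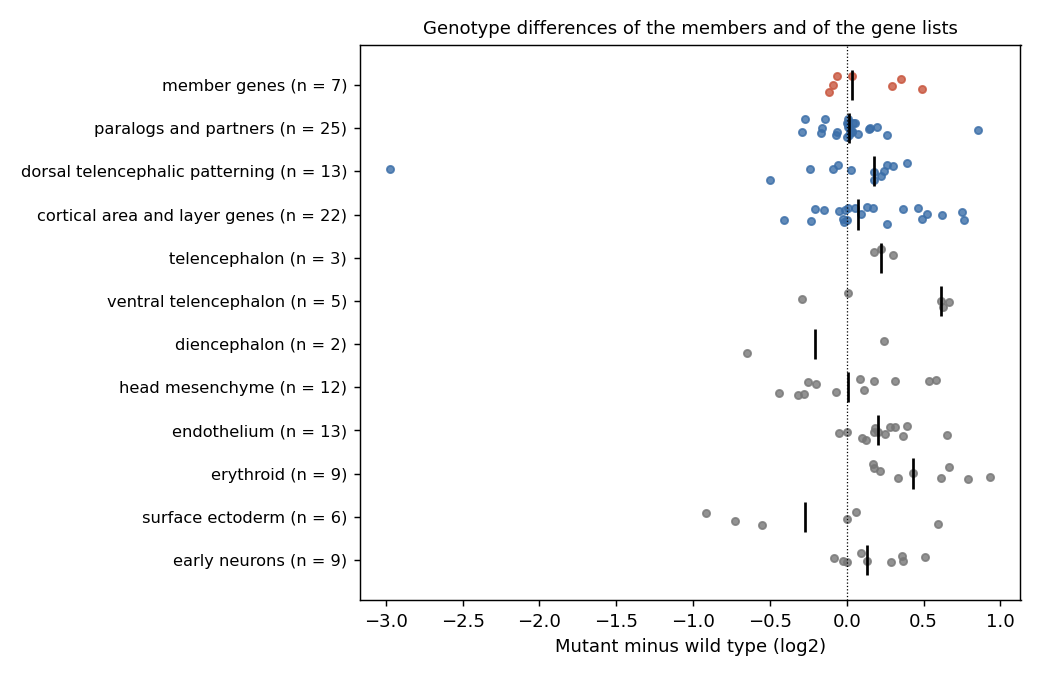
Mutant minus wild-type difference (log2) of each tested gene, by its brightest probe set, in the member set, in 3 lists of related regulators (blue) and in 8 marker lists (grey); vertical bars are medians. The 7 member genes lie between -0.12 and 0.49, whereas Dmrta1 of the dorsal list lies at -2.97. The telencephalon markers are also in the dorsal list.

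The tissue was checked against markers. Sox2 and Lhx2, defining genes of telencephalic neuroepithelium, read between 13.01 and 13.86 on all arrays in their brightest probe sets. All 3 tested telencephalon markers had higher values on both mutant arrays, without overlap, against 12.2% of all genes in that direction. These 3 genes are also in the dorsal patterning list, were counted there with the same values, and add no separate observation. Lhx2 differed by 0.30, Sox2 by 0.22 and the homeobox gene Six3 by 0.18. The summed linear value of the brightest probe sets of these 3 markers ran from 19903 to 20946 in wild type and from 22915 to 25904 in the mutant. Markers of other cell types were present, and several lists had higher summed values on both mutant arrays. These sums mostly follow the brightest genes of a list. They add values of different probe sets, so they only compare arrays and are not levels of a cell type. Of all tested genes, 49.9% were nominally higher in the mutant. The summed linear value of 5 tested ventral telencephalic markers ran from 1012 to 1095 in wild type and from 1466 to 1715 in the mutant. Of these, 4 of 5 were higher, Nkx2-1 by 0.63 and Dlx1 by 0.61 on the log2 scale. Nkx2-1, with values from 9.70 to 10.50, made most of that sum. Ebf1 differed by 0.66 with overlap, Isl1 by 0.01 and Olig2 by -0.29. Early neuron markers were higher in 6 of 9 cases, with sums of 2600.1 to 2936 against 3158 to 3441. Map2, with the highest values of these, differed by 0.36, but by -0.02 (SE 0.45) in a dimmer probe set. Endothelial markers were higher in 12 of 13 cases, with sums of 3957 to 3964 against 4349 to 5062. Erythroid markers were higher in 9 of 9 cases, with sums from 67148 to 67986 against 77704 to 78327. The globin genes Hbe1 and Hbz, which differed by 0.22 and 0.18, made most of that sum.

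Head mesenchyme markers were higher in 6 and lower in 6 of 12 cases, with sums of 9328 to 9534 in wild type and 7991 to 9227 in the mutant. Surface ectoderm markers were lower in 3 and higher in 2 of 6 cases, with sums of 399 to 477 against 371 to 399.7, and of 8 diencephalic markers with a probe set 6 were dim. Of the 2 tested diencephalic markers, 1 was nominally higher, Shh at 0.24 with overlap, and 1 lower, Irx3 at -0.65 without overlap (-0.41 without wild-type replicate 1), with sums of 816 to 916 against 605 to 781. No marker of any of these lists passed the adjusted threshold in limma. Their part in the member differences was not tested.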

How the data were processed

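RNA of wild-type and Pax6 mutant telencephalon (2 arrays each) was labelled with biotin and read on a rat Affymetrix array. The submitters' processing notes name GCRMA, with no version, as the method by which the authors made the deposited log2 values, 1 for each probe set on each array; that they are log2 was judged from their range. This method removes a sequence-based background, scales arrays to each other and merges probes, so low values are compressed and small differences depend on the scaling.

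Of 31099 probe sets, 57 controls were left out, and 12417 with a mean under the 40th percentile (3.21) were left out as dim. Genes were named from the platform annotation where it gave 1 symbol (20826 probe sets), and the Entrez identifiers of all 15 member probe sets matched the RefSeq table (GRCr8), from which no position is printed, since no build is named for the array table. limma 3.58.1 in R 4.3.3 fitted genotype with lmFit and eBayes. The procedure was tested on simulated data with equal spread for every probe set and planted changes larger than any member difference. That test does not bear on differences as small as those of the members. With 2 arrays against 2, an exact two-sided permutation test has 3 splits and 0.333 as its smallest p, and was not used. Arrays give no read depth, and their number limits the precision. The members, gene lists and tests were chosen with earlier results of these data known. Named beside the members were Pax6 and, per list, up to 3 tested genes with the largest difference and no overlap between genotypes. The paralogs and partners with overlapping genotypes, dim genes and markers given by name were chosen after their values were seen. Alternatives changed the filter, pseudocount, scaling, variance model, replicate block, probe set rule and the arrays included.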

Additional observations from a re-analysis of the deposited data

How the results depend on the processing

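In every alternative that was refitted, 0 member genes passed the adjusted threshold in limma; the mean of a gene's probe sets was computed as a value with no test. Over all probe sets, the reported limma fit called 0, with 680 under 0.05 before adjustment, whereas a filter at the 60th percentile called 1, quantile normalization 2 and median centring 2. Member genes without overlap, 4 with the deposited scaling, were 2 after median centring and from 4 to 7 with 1 array left out, where an arm of 1 array, assumed to vary like the others, separates more easily: the share of all genes without overlap was then 56.2% to 66.3%. With 1 array left out the difference of Nr2f1 ran from -0.28 to 0.16 (0.13 without wild-type replicate 1), that of Nr2f2 from -0.24 to 0.0063 and that of Fezf2 from -0.26 to 0.32 (-0.08 without wild-type replicate 1); the other 4 genes kept their sign in every alternative that held them. The stricter filter left Zbtb20 out. The median of the dorsal patterning list was 0.015 without a filter, 0.029 with the stricter filter and 0.046 to 0.173 with 1 array left out. The median of the area and layer list was 0 without a filter, -0.014 with the stricter filter and 0.024 to 0.118 with 1 array left out; filters change which genes are in a list. The median of the paralog and partner list, 0.01 with all arrays, ran from -0.063 to 0.089 with 1 array left out.

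Same-numbered arrays deviated together (correlation 0.43 over tested probe sets, 64.98% with the same sign), but with 2 pairs and no shared litter in the labels they share only a number. With the replicate number as a block, 0 probe sets passed (1194 at an unadjusted p under 0.05), and the lowest member adjusted p was 0.736, for Tle4 and Meis2. Probe sets near the lowest value of 2.07 carry no measurable difference.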
